A study of Mus musculus with 11 samples.

Results

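The 9 genes described here govern where naive and memory T-cells circulate and how they survive: Il7r, Ccr7, Klf2, S1pr1, Lef1, Cd44, Cd27, Actn1 and Satb1. They were taken from the value table as rows that carry exactly 1 gene symbol in the platform annotation. Each had 1 such row, so the 9 members stand among 19937 genes measured in 11 arrays. A naive T-cell keeps to a circuit between blood and lymph nodes. The chemokine receptor CCR7 brings it into the node, the sphingosine-1-phosphate receptor S1PR1 lets it out, and the transcription factor KLF2 drives the S1PR1 gene. IL-7 signals keep resting T-cells alive, whereas activation is known to shut down much of this program and memory cells carry high levels of the adhesion receptor CD44.

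Expression was profiled on the Affymetrix Mouse Gene 1.0 ST array with RNA of T-cells from spleen, in a mouse model of T-cell prolymphocytic leukemia (T-PLL), a mature T-cell malignancy. The leukemic mice were Lckpr-TCL1A+/-, hemizygous for human TCL1A, an oncogene placed under the proximal Lck promoter, which is active from the thymus onward. In the chronic phase (3 arrays) mice of 12 months on average had a tumor load of 30 to 70%. The exponential phase (5 arrays) had over 80% tumor cells in blood and over 90% in the spleen. These mice were 15 months old on average, and their lymphocytes doubled in 12 days. Controls were 3 arrays of C57BL/6 wild-type mice matched for age, each array a pool of 3 animals. Leukemic cells were enriched for CD8+ T-cells by magnetic separation, whereas the wild-type pools held pan-CD3+ T-cells. Genotype and cell selection can therefore not be told apart in any comparison with wild type. The sources used here do not state how many mice gave each leukemia array, so the p-values speak only to the spread from array to array. In bulk RNA, fewer cells of a type and less RNA per cell cannot be told apart either.

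Values are log2 intensities after RMA, and 2.30 was the median of all rows in every array. Exponential replicate 4 went against its CD8 label: Cd8a stood at 2.96 and Cd8b1 at 4.33 in this array, against 7.94 to 8.20 and 8.37 to 9.21 in the other exponential arrays, and its Cd4 value of 5.18 exceeded the 2.15 to 2.44 of the others. The mean of 7 proliferation markers was 7.40 in this array, against 4.90 to 5.52 in the other exponential arrays. It was 4.90 to 5.60 in wild type and 5.46 to 6.53 in chronic arrays. The part of proliferation in the member values was not tested. T-cell markers (8 genes) were present in every array, with list means of 7.02 to 7.41 in wild type, 6.49 to 7.03 in chronic and 6.83 to 7.07 in exponential arrays. Their median log2 change from wild type was -0.51 in the chronic and -0.32 in the exponential phase, and 0 were called. The mean of 8 markers of CD4 helper and regulatory T-cells was 5.46 to 5.72 in the wild-type pools, 2.73 to 3.60 in the chronic and 2.83 to 4.38 in the exponential arrays. Of these 8 markers, 5 were called lower in the chronic phase. In the exponential phase 0 were called with all arrays and 7 once replicate 4 was left out, and all 8 had a negative log2 change in both phases. Cd4 itself lay at 1.79 to 2.59 in the chronic arrays, close to the median of all rows. The NK-cell markers (7 genes) had means of 4.2 to 4.79 in wild type, 4.87 to 5.28 in chronic and 2.35 to 5.59 in exponential arrays, with the lowest mean in exponential replicate 4. Myeloid markers (11 genes) had means of 2.35 to 2.52, 2.27 to 2.51 and 2.99 to 3.99 in the same order, and Lyz2 among them was called higher in the exponential phase, joined by S100a8 and S100a9 without replicate 4. Their part in the results below was not tested. For members and called genes in the exponential phase against wild type, values without replicate 4 are also given.

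None of the 9 members was called in any comparison by limma, fitted without a block, with a call requiring at least 1.5-fold and an adjusted p under 0.05. In the chronic phase against wild type, 0 of 9 members were called, where 0.456% of all genes were. For the exponential phase against wild type it was 0 of 9, against 0.416% of all genes (0 of 9 and 1.11% without replicate 4), and between the phases 0 of 9 against 0%. At an unadjusted p under 0.05, 3 members passed in the chronic phase (Ccr7, Klf2 and Cd44), where 11.2% of all genes did. In exponential arrays 2 members passed (Cd44 and Satb1), against 9.78% of all genes, and between the phases 2 passed (Ccr7 and Klf2), against 6.25%. Without replicate 4 it was 3 (Ccr7, Cd44 and Satb1, against 11.3% of all genes) and 2 (Ccr7 and Klf2, against 7.08%). The methods' t-test called 0 members in each comparison after Benjamini-Hochberg adjustment.

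What the arrays did show was a set of separations by gene. The 3 chronic arrays lay below the 3 wild-type arrays, without overlap, for Ccr7, Klf2 and Cd44, that is for 3 members, where 7.52% of all genes were so placed. All 5 exponential arrays lay below wild type for Cd44, 1 member, where 3.5% of all genes did (5.31% without replicate 4). For Klf2, again 1 member, all 5 exponential arrays lay above the chronic arrays, where 2.3% of all genes did. Each share counts only the direction in which members lay, and the remaining members overlapped in that comparison. The plot of the members by array gives the single values.

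**Figure D1:**
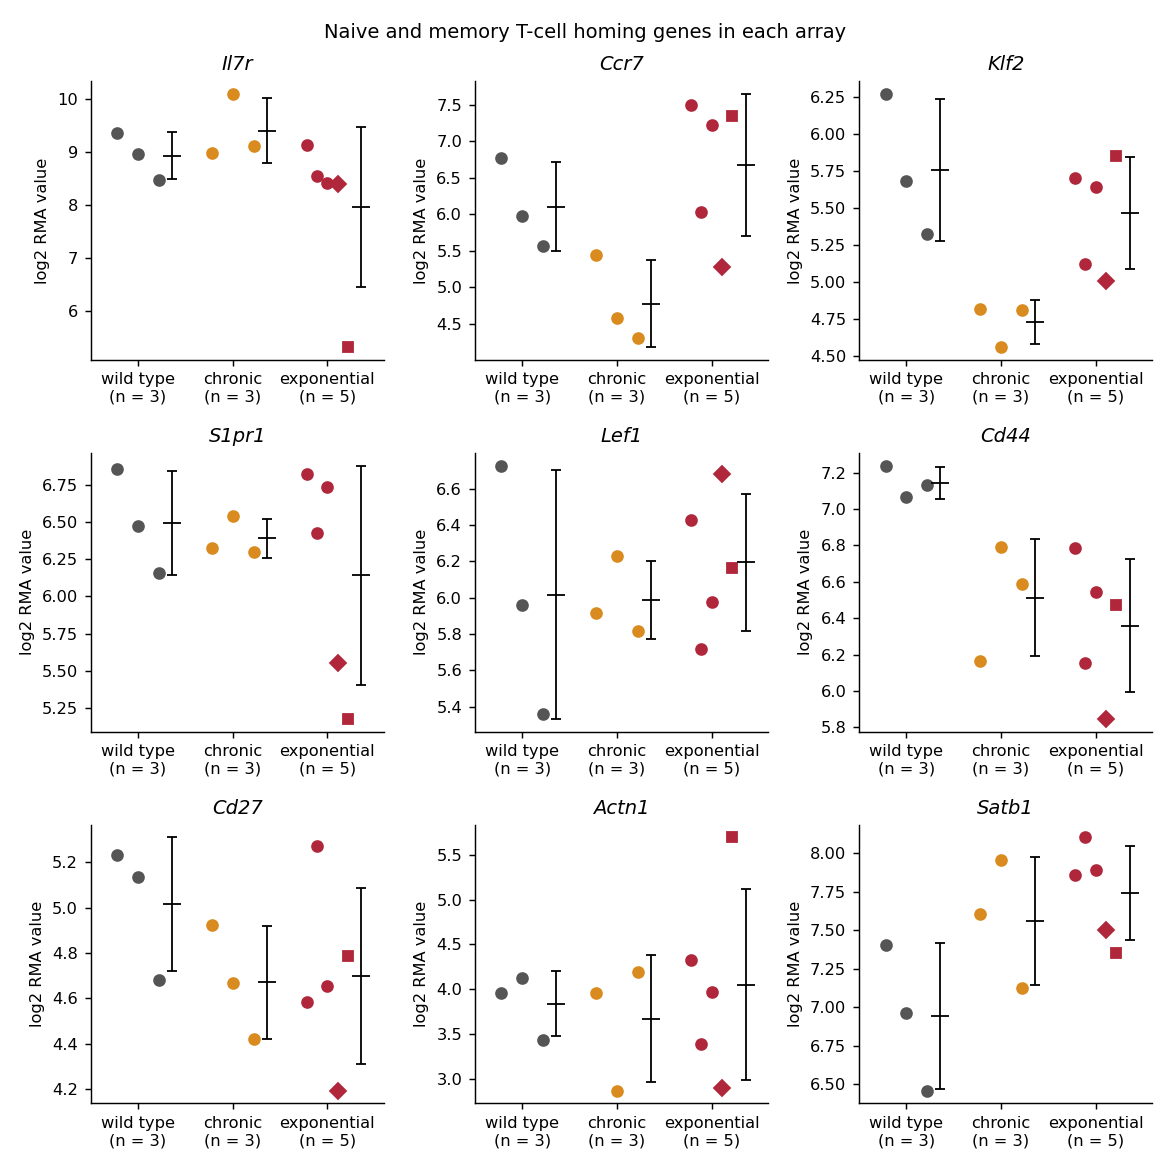
Log2 RMA value of each of the 9 genes in every array, by group (wild type n = 3, chronic n = 3, exponential n = 5), with points for arrays and bars for the group mean and SD. The diamond is exponential replicate 4 and the square is replicate 5. Cd44 lies below wild type in all 8 leukemia arrays, Ccr7 and Klf2 are lowest in the chronic phase, and Il7r in exponential replicate 5 stands at 5.32.

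Promoter sequence is shown for the 3 genes that had a RefSeq window and reached an unadjusted p under 0.05 against wild type in either phase. Each line gives the 250 bases before the annotated start (GRCm38.p6), read 5′ to 3′ on the strand of the gene. Klf2 lies at chr8:72319062-72321654 on the plus strand with its window at chr8:72318812-72319061. Cd44 occupies chr2:102811141-102901669 on the minus strand, and its window is chr2:102901666-102901915, which overlaps the span by a few bases because the start used for the window lies within it. Satb1 is at chr17:51736187-51833290, also on the minus strand, with the window chr17:51833291-51833540. Capitals mark the core of KLF-family binding sites, CACCC, or its reverse complement GGGTG.
Klf2: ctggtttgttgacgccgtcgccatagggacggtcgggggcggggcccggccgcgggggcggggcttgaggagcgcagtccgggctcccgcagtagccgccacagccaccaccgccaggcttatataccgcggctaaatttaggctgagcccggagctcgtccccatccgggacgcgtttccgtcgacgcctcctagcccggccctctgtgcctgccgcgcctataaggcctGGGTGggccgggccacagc
Cd44: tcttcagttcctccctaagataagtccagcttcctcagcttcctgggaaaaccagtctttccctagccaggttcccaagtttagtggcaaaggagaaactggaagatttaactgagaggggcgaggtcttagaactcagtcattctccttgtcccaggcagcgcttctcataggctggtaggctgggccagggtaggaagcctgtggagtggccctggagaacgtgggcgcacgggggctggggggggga
Satb1: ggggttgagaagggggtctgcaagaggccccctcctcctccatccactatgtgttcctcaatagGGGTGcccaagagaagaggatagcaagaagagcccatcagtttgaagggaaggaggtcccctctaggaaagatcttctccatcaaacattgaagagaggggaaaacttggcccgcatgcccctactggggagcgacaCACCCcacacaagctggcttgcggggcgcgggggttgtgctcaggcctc

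The window of Klf2 held the KLF core once, 19 bases before the start, that of Satb1 at 186 and 49 bases, and that of Cd44 held none. Of the 9 members 7 had a window, and the core was found in 4 of them (Cd27, Klf2, Lef1 and Satb1), whereas 51.3% of all 27025 windows of this length contained it. Searched on both strands, the FOXO core TGTTTAC (in 3.06% of all windows), the TCF/LEF core CTTTGA (14.1%) and the ETS core CGGAAG (13.8%) were found in 0 of the 7. A match describes letters only.

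Ccr7, the receptor that guides T-cells along CCL19 and CCL21 into lymph nodes, lay at 6.76, 5.98 and 5.56 in wild-type replicates 1 to 3. The chronic arrays gave 5.44, 4.58 and 4.30, all below the lowest wild-type pool. In exponential replicates 1 to 5 it stood at 7.50, 6.03, 7.22, 5.27 and 7.34. Replicates 1, 3 and 5 were thus above the highest wild-type pool, replicate 4 below the lowest one, and replicate 2 among them. The group means were 6.10 ± 0.61 (SD, n = 3) in wild type, 4.77 ± 0.59 (SD, n = 3) in chronic and 6.67 ± 0.98 (SD, n = 5) in exponential arrays. Against wild type, the log2 difference was -1.33 in the chronic phase (SE 0.37, 95% interval -2.19 to -0.47, limma adjusted p = 0.221), equal to a 2.51-fold lower level. It was 0.57 in the exponential phase (SE 0.51, interval -0.58 to 1.72, adjusted p = 0.813), and 0.92 (SE 0.37, adjusted p = 0.368) without replicate 4.

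Between the phases, Ccr7 had the widest separation of means among the members, 1.90 on the log2 scale or 3.73-fold higher in the exponential phase (SE 0.52, interval 0.74 to 3.07, limma adjusted p = 0.748). Only exponential replicate 4 overlapped the chronic range. Without this array the difference was 2.25 (SE 0.38, adjusted p = 0.298), and the remaining arrays did not overlap. Klf2 and Ccr7 were the 2 members so placed without replicate 4, as were 3.4% of all genes. B cells are another source of Ccr7 transcripts. The mean of 9 B-cell markers was 4.68, 4.55 and 3.92 in exponential replicates 1, 3 and 5, where Ccr7 was high, and 3.30 and 3.36 in replicates 2 and 4. It was 2.93, 3.17 and 3.90 in wild-type replicates 1 to 3, the reverse of their Ccr7 order. Chronic replicates 1 to 3 had 3.71, 2.49 and 3.12, and 0 of the 9 markers were called in any comparison. Dendritic cells also carry Ccr7, and the mean of 8 of their markers was 2.15 to 2.34 in wild type, 2.12 to 2.27 in chronic and 2.22 to 2.72 in exponential arrays. The part of these cells in the Ccr7 values was not tested.

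Klf2, the regulator whose promoter is printed above, gave 6.27, 5.68 and 5.32 in wild type. It lay lower in the chronic arrays, at 4.82, 4.56 and 4.82, which were tightly placed. The exponential arrays had 5.71, 5.12, 5.64, 5.01 and 5.85, with replicates 2 and 4 below the wild-type range and the others inside it. Means ran from 4.73 ± 0.15 (SD, n = 3) in chronic through 5.47 ± 0.38 (SD, n = 5) in exponential to 5.76 ± 0.48 (SD, n = 3) in wild type, and only the upper pair of neighbours overlapped. The difference from wild type was -1.03 in the chronic phase (SE 0.23, interval -1.57 to -0.49, limma adjusted p = 0.135), a level 2.04-fold lower. For the exponential phase it was -0.29 (SE 0.25, adjusted p = 0.800), and exponential exceeded chronic by 0.74 (SE 0.20, interval 0.28 to 1.19, adjusted p = 0.748). Without exponential replicate 4 the phases differed by 0.85 (SE 0.18, adjusted p = 0.473).

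S1pr1, the exit receptor and a target gene of KLF2, did not follow the order seen for Klf2. Wild-type pools gave 6.86, 6.47 and 6.16, and the chronic arrays 6.32, 6.54 and 6.30, within that range. Exponential replicates 1 to 3 had 6.82, 6.43 and 6.73, while replicates 4 and 5 lay below every other array at 5.55 and 5.18. The differences from wild type were -0.11 in chronic (SE 0.19, interval -0.54 to 0.33, limma adjusted p = 0.912) and -0.35 in exponential arrays (SE 0.38, interval -1.20 to 0.50, adjusted p = 0.848). Cd69, whose product removes S1PR1 protein from the cell surface, had 9.92, 9.57 and 8.87 in wild type and 9.70, 7.41 and 8.61 in chronic arrays. In exponential arrays it gave 10.16, 8.94, 9.77, 6.93 and 9.28. Its chronic difference of -0.88 had an adjusted p of 0.651, and the groups overlapped.

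Il7r encodes the receptor chain through which IL-7 keeps naive and memory T-cells alive. Its values were 9.35, 8.96 and 8.47 in wild type and 8.99, 10.09 and 9.11 in the chronic phase. Exponential replicates 1 to 4 had 9.13, 8.54, 8.42 and 8.39, but replicate 5 stood at 5.32. The group order by mean was chronic (9.40 ± 0.61, SD, n = 3), wild type (8.93 ± 0.44, SD, n = 3) and exponential (7.96 ± 1.5, SD, n = 5), and both neighbouring pairs overlapped. The exponential SD of Il7r lay at percentile 99.6 of all genes, whatever their signal, and those of Actn1 (99.0), Ccr7 (98.7) and S1pr1 (97.5) were also near the top. The remaining members ran from 84.0 (Satb1) to 90.6 (Cd27). In the chronic arrays the percentile was 96.3 for Il7r, 97.5 for Actn1, 96.1 for Ccr7 and 36.2 for S1pr1. The exponential difference from wild type of -0.97 (SE 0.73, interval -2.62 to 0.68, limma adjusted p = 0.766) rested on replicate 5, without which it was -0.31 (adjusted p = 0.785). The chronic difference was 0.47 (SE 0.33, adjusted p = 0.705), and 0.12 without chronic replicate 2. Between the phases it was -1.44 (SE 0.76, interval -3.14 to 0.26), and -0.78 without exponential replicate 5.

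The array with low Il7r was not low for all members. Exponential replicate 5 also had the lowest S1pr1 value and the highest Actn1 value of all 11 arrays, whereas its Ccr7 and Klf2 values were among the higher ones of its group. Its Cd8a value of 8.20 was close to those of exponential replicates 1 to 3. The map of deviations shows the arrays side by side.

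**Figure D2:**
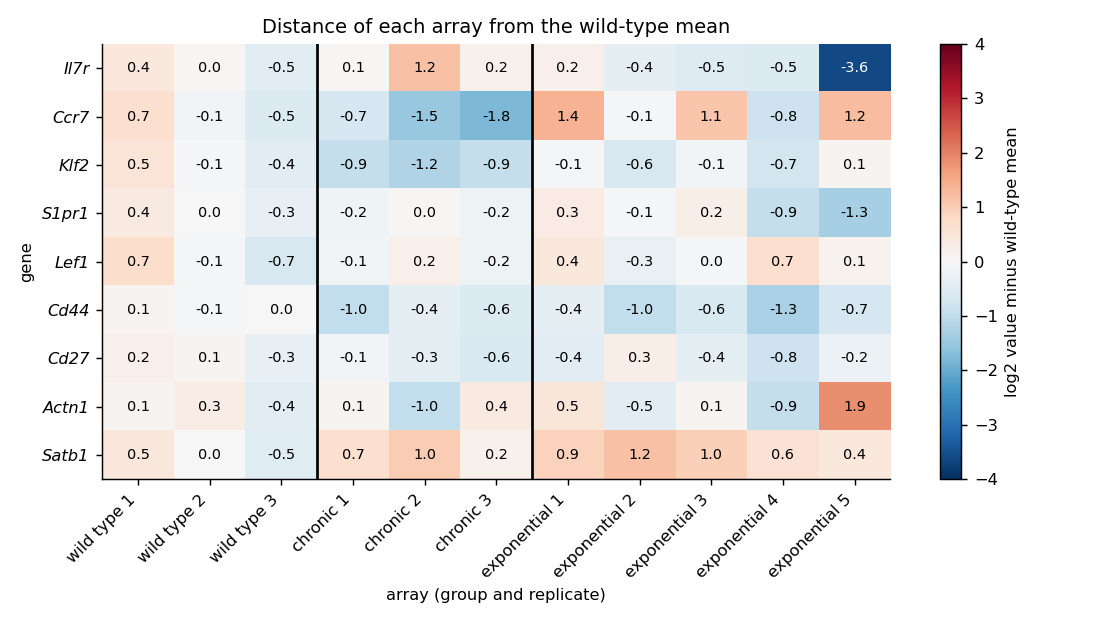
Each cell gives the log2 value of a gene in an array minus the mean of the 3 wild-type arrays, for 9 genes (rows) and 11 arrays (columns), with the colour scale in log2 units. Exponential replicate 5 is low for Il7r and S1pr1 and high for Actn1, and exponential replicate 4 lies below the wild-type range for 7 of the 9 genes.

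Lef1, a transcription factor that with TCF-1 maintains the naive state, differed least from wild type in both phases among the members. Values were 6.73, 5.96 and 5.36 in wild type, 5.91, 6.23 and 5.82 in chronic, and 6.43, 5.72, 5.98, 6.68 and 6.16 in exponential arrays. All 8 leukemia arrays stayed within the wild-type range, which itself spanned more than the leukemia arrays did. The log2 differences were -0.03 for chronic (SE 0.32, interval -0.77 to 0.71, limma adjusted p = 0.988) and 0.18 for exponential against wild type (SE 0.30, interval -0.50 to 0.86, adjusted p = 0.915). Both intervals still include changes of more than 1.5-fold.

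Satb1, a chromatin organizer of the T-lineage, had no leukemia array below the wild-type range. Wild-type pools gave 7.40, 6.96 and 6.46, and the chronic arrays 7.60, 7.95 and 7.13. The exponential arrays had 7.86, 8.10, 7.89, 7.50 and 7.35, so that 6 of 8 leukemia arrays lay above the highest wild-type pool and the other 2 inside the range. In single leukemia arrays, 24.6 to 32.0% of all genes lay above their highest wild-type pool. The exponential difference was 0.80 (SE 0.23, interval 0.29 to 1.31, limma adjusted p = 0.228), or 1.74-fold higher, and 0.86 (SE 0.23, adjusted p = 0.142) without replicate 4. In the chronic phase it was 0.62 (SE 0.28, interval -0.04 to 1.28, adjusted p = 0.482), and the phases differed by 0.18 (SE 0.22, interval -0.31 to 0.67, adjusted p = 0.924). The level ordered exponential, chronic, wild type, with overlap of both neighbouring pairs.

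Cd44, the hyaluronan receptor that marks activated and memory T-cells, was the only member below the wild-type range in all 8 leukemia arrays. Wild-type pools agreed closely, at 7.24, 7.06 and 7.13. Chronic arrays had 6.16, 6.79 and 6.59, and exponential arrays 6.78, 6.16, 6.54, 5.85 and 6.47. The 2 leukemia groups overlapped each other and neither overlapped wild type. The chronic difference was -0.63 (SE 0.17, interval -1.03 to -0.23, limma adjusted p = 0.214), a 1.55-fold lower level. The exponential difference was -0.78 (SE 0.19, interval -1.22 to -0.35, adjusted p = 0.157), 1.72-fold lower, and -0.66 (SE 0.15, adjusted p = 0.0806) without replicate 4. Between the phases it was -0.15 (SE 0.22, interval -0.65 to 0.34, adjusted p = 0.938). The CD4 helper and regulatory T-cell markers, given above, had a lower mean than every wild-type pool in the same 8 arrays, although Cd4 alone was higher in exponential replicate 4. Their mean was 3.60, 2.73 and 3.31 in chronic replicates 1 to 3, the reverse of the Cd44 order there. In exponential replicates 1 to 5 it was 3.73, 2.83, 3.40, 4.38 and 3.48, highest in replicate 4, where Cd44 was lowest. Without replicate 4, replicates 1 and 2 held the highest and lowest values of both. The part of these cells in the Cd44 values was not tested.

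Cd27, a costimulatory receptor of the TNF receptor family that is lost on late effector cells, was 5.23, 5.14 and 4.68 in wild type, 4.92, 4.67 and 4.42 in chronic, and 4.58, 5.27, 4.66, 4.19 and 4.78 in exponential arrays. Of the 8 leukemia arrays, 5 lay below the wild-type range and 1 above it. The differences from wild type were -0.35 in the chronic (SE 0.19, interval -0.79 to 0.10, limma adjusted p = 0.597) and -0.32 in the exponential phase (SE 0.22, interval -0.82 to 0.18, adjusted p = 0.738). The phases themselves differed by 0.03 (SE 0.22, interval -0.47 to 0.52).

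Actn1, which encodes the actin cross-linker alpha-actinin-1 and is found in naive T-cell signatures, gave 3.96, 4.13 and 3.43 in the wild-type pools, and 3.96, 2.87 and 4.19 in the chronic arrays. Exponential arrays had 4.32, 3.39, 3.96, 2.89 and 5.70, a span of 2.80 on the log2 scale between replicates 4 and 5. No direction held across arrays, as 3 leukemia arrays lay below the wild-type range, 2 inside it and 3 above. The differences from wild type were -0.17 in chronic (SE 0.35, interval -0.98 to 0.64, limma adjusted p = 0.927) and 0.21 in exponential arrays (SE 0.53, interval -0.97 to 1.40, adjusted p = 0.948). The exponential difference turned to -0.20 without replicate 5, and the chronic one to 0.24 without chronic replicate 2.

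**Figure D3:**
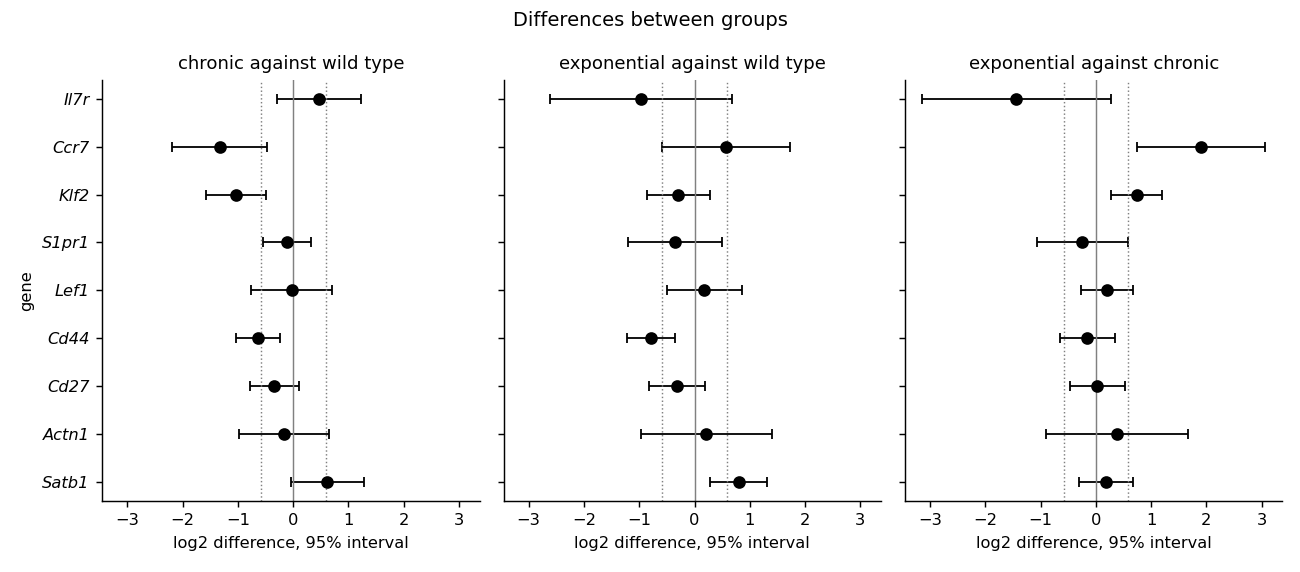
Log2 difference of group means with its 95% interval from limma for the 9 genes in 3 comparisons, with dotted lines at 1.5-fold. For chronic against wild type the intervals of Ccr7, Klf2 and Cd44 lie below 0, for exponential against wild type that of Cd44 lies below and that of Satb1 above 0, and between the phases those of Ccr7 and Klf2 lie above 0, while no adjusted p was under 0.05.

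Across the members, 7 of 9 had a negative log2 difference in the chronic phase, where 50.3% of all genes did, and 5 of 9 in the exponential phase, where 48.3% did. Between the phases it was 3 of 9, against 48.9% of all genes. The median member difference was -0.17 in chronic and -0.29 in exponential arrays against wild type, beside 0.00 and 0.01 for all genes. Both comparisons use the same 3 wild-type arrays. Without exponential replicate 4, the members not yet given so differed from wild type by -1.08 (Il7r), -0.18 (Klf2), -0.21 (S1pr1), 0.05 (Lef1), -0.19 (Cd27) and 0.50 (Actn1) on the log2 scale. The pools themselves were not uniform. Replicate 1 was the highest and replicate 3 the lowest pool for 7 of 9 members, all but Cd44 and Actn1, a pattern that 22.3% of all genes had. By array, the members below the wild-type range numbered 3 to 5 in the chronic arrays, 2 to 3 in exponential replicates 1, 2, 3 and 5, and 7 in exponential replicate 4. The share of all genes below the range was 26.3 to 29.9% in the chronic arrays, 24.2 to 28.1% in exponential replicates 1, 2, 3 and 5, and 24.9% in replicate 4. Members above the range numbered 1 to 2 in the chronic and 1 to 3 in the exponential arrays. Of all genes, 24.9 to 32.0% lay above it in the chronic and 24.6 to 29.7% in the exponential arrays.

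The genes with the most similar profile over the 11 arrays were found by the root mean square (RMS) distance between log2 profiles centred on their own mean, among 9968 genes of above-median signal. For Ccr7 these were Rhoh (distance 0.50), a regulator of T-cell receptor signaling, Nr4a1 (0.50), an immediate-early target of that receptor, and the NF-kappaB subunit gene Rel (0.54), while the Ccr7 profile itself had an RMS deviation of 1.05. Rhoh gave 6.76, 5.80 and 5.87 in wild type, 5.80, 4.76 and 4.08 in chronic, and 6.36, 5.44, 6.11, 4.67 and 6.97 in exponential arrays. Rel had 7.89, 7.71 and 7.20, then 7.15, 5.92 and 5.69, then 7.84, 6.52, 8.20, 6.34 and 7.41. Like Ccr7, both were high in exponential replicates 1, 3 and 5 and low in chronic replicates 2 and 3.

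The closest profiles to Klf2 were Gpr132 (0.22), Kdm6b (0.24) and Nr1d2 (0.24), those to Cd44 were Hivep1 (0.20), Nubp2 (0.21) and Hipk3 (0.21), and those to Satb1 were Ppp2r5a (0.21), Prps2 (0.23) and Glipr2 (0.23). S1pr1 was nearest to Fchsd2 (0.26), Cd27 to Ccdc22 (0.15) and Lef1 to Mir187 (0.18). For Il7r, the nearest gene of the search was another member, S1pr1, at 0.82, not far below the RMS deviation of Il7r itself (1.15). The low exponential replicate 5 is shared by both. Among the members, the distance was smallest between Cd44 and Cd27 (0.43), yet it exceeded the RMS deviation of either gene (0.42 and 0.32). Il7r and Ccr7 were farthest apart (1.89).

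Around the members, 9 lists of pathway genes were examined, with 116 of 128 listed genes measured and the members left out. In the chronic phase 1 of the 116 rose and 5 fell, in the exponential phase 0 rose and 6 fell, and between the phases 0 passed. Of all genes, 0.456%, 0.416% and 0% were called. Without exponential replicate 4 the same 6 fell in that phase and 1 rose (Bcl2), where 1.11% of all genes were called. Tcf7 (TCF-1) was not analysed here, since no row carried its symbol alone. The called genes came from 4 of the 9 lists, and the lists of the S1P exit pathway, the TCF and LEF network, the IL-7 receptor pathway, the actinin and chromatin-organizer relatives and the other naive T-cell genes had 0.

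Of 12 measured genes of lymph node entry and retention, 1 fell in each phase. This was Itga4, the alpha-4 integrin chain that carries lymphocytes into inflamed tissue and Peyer's patches. It stood at 9.19, 9.17 and 8.88 in wild type, 6.23, 6.95 and 7.67 in chronic, and 6.76, 4.97, 6.34, 6.47 and 6.41 in exponential arrays. All leukemia arrays were thus below all wild-type pools. Itga4 fell by 2.13 in the chronic (SE 0.33, adjusted p = 0.0477) and by 2.89 in the exponential phase (SE 0.35, adjusted p = 0.0129), or 2.96 without replicate 4. The chronic call was lost without chronic replicate 1 or 2 or any wild-type pool (adjusted p up to 0.173), in 1 fit over all 3 groups (0.0626) and with cyclic loess (0.0516), and the exponential call without any wild-type pool (up to 0.0600). The list median was -0.30 in chronic and -0.15 in exponential arrays.

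In the S1P exit pathway 0 of 12 genes passed in either phase, and list medians were 0.00 and 0.04. S1pr5, a receptor of the same family on cytotoxic cells, had the smallest p in the chronic phase, at 0.94 above wild type (SE 0.33, adjusted p = 0.335). Of 12 genes of the FOXO1 and KLF network, Klf6 fell by 2.00 in the chronic phase (SE 0.25, adjusted p = 0.0305). This activation-linked relative of Klf2 had 8.42, 8.11 and 7.55 in wild type, 6.38, 5.75 and 5.95 in chronic, and 8.58, 6.78, 7.63, 5.14 and 8.33 in exponential arrays. Leaving out chronic replicate 2 or 3, or pool 1 or 2 of the wild type, ended its call (adjusted p up to 0.126), as did 1 fit over all 3 groups (0.288). Foxo1, which encodes the factor upstream of Klf2 and Il7r, differed from wild type by -0.04 (adjusted p = 0.974) in chronic and -0.20 in exponential arrays, with overlap, and the latter was -0.04 without replicate 4. The list medians were -0.11 and 0.01.

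None of 11 genes of the TCF and LEF network passed, with medians of -0.17 and 0.02. Axin2, a target gene of this network, had an exponential difference of 0.40 (SE 0.11, adjusted p = 0.229). In the IL-7 receptor pathway 0 of 11 passed, with medians of 0.07 and -0.05. Bcl2, the survival gene downstream of IL-7, gave 6.17, 5.68 and 5.33 in wild type, 6.98, 7.17 and 6.53 in chronic, and 6.74, 7.58, 7.13, 5.41 and 7.19 in exponential arrays. All leukemia arrays but exponential replicate 4 lay above the wild-type pools. Its difference was 1.17 in chronic (SE 0.25, adjusted p = 0.114) and 1.08 in exponential arrays (SE 0.43, adjusted p = 0.440), and it was called at 1.43 (SE 0.23, adjusted p = 0.0202) once replicate 4 was left out.

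Among 12 partners of CD27 and CD44, the costimulatory TNF receptor genes Tnfrsf9 (4-1BB) and Tnfrsf4 (OX40) fell in both phases. Tnfrsf9 fell by 1.25 in chronic (SE 0.13, adjusted p = 0.0166) and by 1.16 in exponential arrays (SE 0.14, adjusted p = 0.0128), and Tnfrsf4 by 1.56 (SE 0.23, adjusted p = 0.0452) and 1.43 (SE 0.18, adjusted p = 0.0161). Without exponential replicate 4 the falls were 1.19 and 1.44. In the leukemia arrays both genes stood at 1.99 to 2.71, around the median of all rows, so that these falls may be lower bounds. In the chronic phase the call of Tnfrsf4 was lost whichever array was left out (up to 0.135) and with cyclic loess (0.0551), and that of Tnfrsf9 with each array except chronic replicate 3 (up to 0.0777). In the exponential phase, Tnfrsf9 lost its call without any wild-type pool (up to 0.0594) and Tnfrsf4 without pool 1 or 2 (up to 0.0519). Both genes are expressed by regulatory T-cells, whose markers were lower in the same arrays, and the part of those cells was not tested. The list medians were -0.15 and 0.04. None of 11 relatives of actinin and the chromatin organizers passed. Zyx, which encodes the actinin partner zyxin, differed by 0.74 (SE 0.18, adjusted p = 0.175) and 0.65 (SE 0.22, adjusted p = 0.339), with the leukemia arrays of both phases above all wild-type pools.

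Of 16 other naive T-cell genes 0 passed, with medians of -0.21 and 0.03. Il6st, the shared signaling chain of the IL-6 receptor family, had the smallest p in the chronic phase, with a difference of -1.25 (SE 0.23, adjusted p = 0.0802). Among 27 effector and memory genes, Gzmb (granzyme B of cytotoxic cells) rose by 2.21 in the chronic phase (SE 0.18, adjusted p = 0.00801). Exponential replicates 1 to 5 had Gzmb at 5.43, 7.49, 7.62, 2.48 and 8.47, against 4.89 to 5.19 in wild type. All but replicate 4 thus lay above the wild-type pools, and Gzmb was not called in this phase. Without replicate 4 its exponential difference from wild type was 2.24 (SE 0.56, limma adjusted p = 0.109), and that from chronic 0.03 (SE 0.59). Il2ra (CD25, high on regulatory and activated T-cells) fell by 1.85 in the chronic phase (SE 0.26, adjusted p = 0.0394). In exponential arrays Il2ra fell by 1.77 (SE 0.20, adjusted p = 0.0114), Cxcr6, a receptor of tissue-resident cells, by 3.02 (SE 0.48, adjusted p = 0.0394) and S100a4, a gene raised in memory cells, by 1.95 (SE 0.31, adjusted p = 0.0394). Without replicate 4 these falls were 1.70, 2.91 and 2.17. Cxcr6 and S100a4 were not called in the chronic phase, but its arrays also lay below all wild-type pools for both. S100a4 had 5.35, 3.68 and 4.85 there (5.98 to 6.84 in wild type), and Cxcr6 had 3.28, 6.29 and 6.28 (6.47 to 6.60). Il2ra stood at 1.88 to 2.79 in the leukemia arrays, around the median of all rows, and its falls may be lower bounds. List medians were -0.02 and -0.31.

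Among these calls, Gzmb in the chronic and Il2ra in the exponential phase remained whichever array was left out. Gzmb was not called in 1 fit over all 3 groups. Neither all rows nor the methods' t-test after adjustment called any gene in the chronic phase. In the exponential phase the methods' t-test after adjustment called 0 of the 6 list genes. The chronic call of Il2ra was lost without chronic replicate 2 or 3 or any wild-type pool (adjusted p up to 0.134). That of Cxcr6 was lost without exponential replicate 2, 3 or 5 or any wild-type pool (up to 0.132), in 1 fit over all 3 groups (0.106), with a variance trend and robust estimation (0.0791) and over all rows (0.0927), and that of S100a4 with each array except exponential replicate 4 (up to 0.130), in 1 fit over all 3 groups (0.0639) and over all rows (0.0927). Between the phases 0 of the 116 genes were called, and Anxa1, an annexin raised in memory T-cells, had the smallest p of its list at 1.53 higher in the exponential phase (SE 0.34, adjusted p = 0.638).

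**Figure D4:**
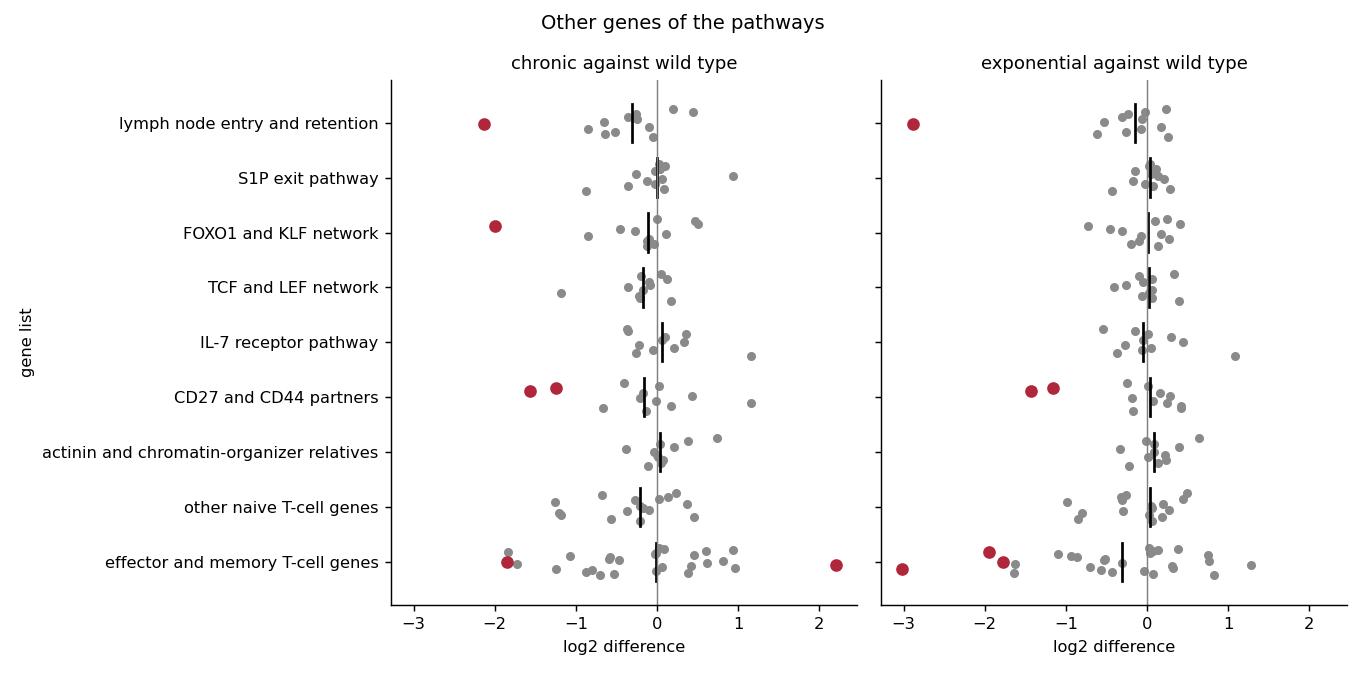
Log2 difference from wild type of each measured gene of 9 pathway lists, for chronic (n = 3) and exponential (n = 5) arrays against 3 wild-type pools. Red points passed at least 1.5-fold and an adjusted p under 0.05, black bars are list medians, which lie between -0.31 and 0.09, and 6 genes passed in each phase.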

How the data were processed

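The authors corrected the background of the Affymetrix arrays by RMA and quantile-normalized them with the affy package of R (version not given in the sources used here), and deposited log2 values, a base judged here from their range. Of 34760 rows, 21640 carried 1 symbol. The row with the highest mean was kept for 954 genes with several rows, which left 19937 genes. No detection calls were used, and precision is limited by how many arrays there are.

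Groups followed the titles of the labels. Each comparison was fitted on its own arrays by lmFit and eBayes of limma 3.58.1 (R 4.3.3), since the study took each phase by itself. The Benjamini-Hochberg adjustment covered all genes, and calls needed at least 1.5-fold and an adjusted p under 0.05. The script was tested on simulated data. Members, gene lists and tests were chosen with earlier results of these data known. Named genes are all members, Foxo1, Cd69, Cd8a, Cd4 and Tcf7, every called gene of a list, otherwise up to 3 genes of a list with the smallest p, and for likeness the 3 nearest genes per member. Cd8b1 was named after its values were seen.

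Alternatives were a joint fit of the 3 groups, a block for the replicate number, a filter on the dimmest 30% of genes, cyclic loess normalization, a variance trend with robust estimation, the methods' t-test, averaged rows per gene, all rows, and each array left out. Promoter windows are those of RefSeq, assembly GRCm38.p6, with 7 of 9 members matched.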

Additional observations from a re-analysis of the deposited data

Results flagged for a closer look

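Of 22 genes examined within the 5 exponential arrays, 6 had 1 array whose distance to the nearest other array exceeded 0.71 of the group's range. Chance gives about 1 in 20 groups, but the count cannot be set against that rate. Some of the 22 genes were picked by their calls or values in these data, and Cd8a, Cd8b1 and Cd4 flag the same array. Among the 9 members only Il7r was flagged, at 5.32 in exponential replicate 5. Exponential replicate 4 was set apart for the lineage genes Cd8a (2.96), Cd8b1 (4.33) and Cd4 (5.18). Itga4 stood apart in exponential replicate 2 at 4.97, and Cxcr6 in exponential replicate 1 at 5.28.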

How the results depend on the processing

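Over 441 refits of member differences, 420 kept their direction and their side of the threshold, 7 passed it in addition and 14 turned direction. Except for S1pr1, all turns came from leaving out 1 array. With the replicate block S1pr1 turned to 0.17 for exponential against wild type and 0.27 for exponential against chronic. Ranges over left-out arrays that crossed 0 were, for chronic against wild type, -0.36 to 0.33 for Lef1, -0.43 to 0.24 for Actn1 and -0.27 to 0.075 for S1pr1. For exponential against wild type they were -0.15 to 0.53 for Lef1 and -0.20 to 0.50 for Actn1. For exponential against chronic they were -0.12 to 0.15 for Cd27, -0.030 to 0.67 for Actn1 and -0.038 to 0.38 for Satb1.

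Members called numbered 1 with the replicate block in chronic against wild type (Ccr7, adjusted p = 0.0283), and 2 in each comparison by the methods' t-test at an unadjusted p (Klf2 and Cd44, Cd44 and Satb1, Ccr7 and Klf2). Leaving out any array gave 0 in every comparison. Genes called in chronic against wild type (91) became 154 with a variance trend and robust estimation, 0 and 623 by the methods' t-test after Benjamini-Hochberg and at an unadjusted p, and 0 over all rows, where 3221 rows had an unadjusted p under 0.05. Leaving out arrays gave 8 to 108, with 8, 14 and 18 without wild-type replicates 1, 2 and 3, and 40 and 45 without chronic replicates 1 and 2. In exponential against wild type (83) they became 139 with the replicate block, 4 and 477 by the methods' t-test, and 45 over all rows. Leaving out arrays gave 16 to 221, with 32, 16 and 26 without wild-type replicates 1, 2 and 3, 36, 43 and 37 without exponential replicates 2, 3 and 5, and 221 without replicate 4. Between the phases (0) the methods' t-test at an unadjusted p gave 123, and leaving out arrays 0 to 2, the latter without chronic replicate 1. The cause of these shifts was not tested.

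Deviations of same-numbered arrays correlated at 0.18, -0.01 and 0.12 between chronic and wild type, 0.17, 0.01 and -0.01 between exponential and wild type and 0.03, 0.16 and -0.04 between the phases, so the numbers were not taken to pair the arrays. The replicate block also ended the chronic call of Itga4 (adjusted p = 0.0582).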
